A study of Homo sapiens with 4 samples.

Results

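NRF2, the transcription factor made from NFE2L2, and 8 of its antioxidant target genes were followed through RNA sequencing of HT29 cells, an established human colon adenocarcinoma line, in which the microRNA miR-23b had been raised or blocked. The 9 genes were NFE2L2, NQO1, HMOX1, GCLC, GCLM, TXNRD1, SRXN1, ME1 and PIR, taken by gene symbol from the deposited isoform tables. They held 77 of the 168036 transcripts and made up 9 of the 53617 genes in each table, and none of their 77 transcripts had a failed status in either table. The groups were HT29 cells given a miR-23b precursor (a synthetic RNA that raises the microRNA, labelled High miR23b), HT29 cells given the control of the precursor, HT29 cells given an antimir (an oligonucleotide that binds and blocks the microRNA, labelled Low miR23b) and HT29 cells given the control of the antimir. All 4 cultures were at passages 12 to 13. They were transfected at 50 nM (the labels write "50nm") with Lipofectamine 2000 at 90% confluency in medium with 5% serum. Their medium was changed after 24 h, and RNA was collected at 48 h. Each group was 1 library of 1 cell line, so no value below has a replicate error, no test could be made, and no difference has a replicate check.

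NRF2 is held low in resting cells by KEAP1, which hands it to a CUL3 ubiquitin ligase for destruction. Oxidants and electrophiles disable KEAP1, and NRF2 then builds up, pairs with small MAF proteins and binds antioxidant response elements in front of genes that make glutathione, recycle thioredoxin, supply NADPH and detoxify quinones. Because this control acts mostly on the NRF2 protein, the mRNA of its targets is commonly read as the output of the pathway.

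The microRNA that was raised or blocked is shown first, because its seed (bases 2 to 8, in capitals) sets which messages carry a matching site. The 2 mature sequences, from RefSeq on GRCh38.p14, share the seed UCACAUU.
hsa-miR-23b-3p: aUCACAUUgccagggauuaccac
hsa-miR-23a-3p: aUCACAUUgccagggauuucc
The complement of this seed, AATGTGA, was searched in the longest 3′ UTR of each protein-coding gene in GENCODE 29. It was present in 2 of the 9 genes, GCLM and TXNRD1, against 18.4% of the 19114 genes searched. The sites of both genes are shown within 30 bases of their 3′ UTRs, with the seed match in capitals.
GCLM, 3′ UTR positions 3287 to 3293 of 3785: gcattcagagaAATGTGAagcttgttttaa
TXNRD1, 3′ UTR positions 1828 to 1834 of 1884: aaaaacaaaacAATGTGAaacattaaaatt
The longest 3′ UTR of NFE2L2 held no such match, although 6 of its 12 matched transcripts held the 7 letters somewhere along their length. The same was true of HMOX1 (2 of 4 matched transcripts), GCLC (2 of 12) and ME1 (1 of 1). No matched transcript of NQO1, PIR or SRXN1 held the letters. A match is a run of letters and no evidence of binding.

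The core of the antioxidant response element, TGACNNNGC, was searched on both strands of the RefSeq promoters from 250 bases before to 50 bases after each start on GRCh38.p14. It occurred in 13.3% of 35116 promoters. Of the 10 promoters listed for these genes, 5 held it, and they belonged to GCLM, ME1, TXNRD1 and PIR. One match each for the first 3 genes is shown in 30 bases, read along the gene, with the core in capitals, because these genes make glutathione, supply NADPH and recycle thioredoxin.
GCLM, chr1:93909445-93909474, minus strand, core on the opposite strand: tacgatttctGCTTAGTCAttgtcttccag
ME1, chr6:83431169-83431198, minus strand, core on the same strand: tctcctgccaTGACTCAGCgcttctcgcag
TXNRD1, chr12:104215670-104215699, plus strand, core on the same strand: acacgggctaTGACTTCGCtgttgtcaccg
Promoters of NFE2L2, GCLC, NQO1 and SRXN1 held no match in this window, which says only that these letters are not there, and the promoter of HMOX1 was not searched.

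The cells expressed most of the colon epithelial markers. Of 12 such markers, 10 reached 1 FPKM in both libraries of the precursor table, and 9 in both libraries of the antimir table. FPKM is a read density per transcript length and library size. Of 16 markers of blood, vessel, connective tissue and other cell types, 2 reached 1 FPKM in every library (CD14 and CD68), and between 5 and 8 were listed at 0 in a library. Their summed FPKM was 10.2 with the precursor and 7.86 in its control, and 8.46 with the antimir and 7.77 in its control. In bulk RNA, fewer cells of a type and less RNA per cell cannot be told apart. The 2 tables were treated as normalised separately, so a level is compared only within a table, except in the search for similar patterns further below.

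The 9 genes spanned a wide range, from 2.858 FPKM (HMOX1, antimir control) to 28354 FPKM (TXNRD1, precursor control), and their order was the same in all 4 libraries: TXNRD1, NQO1, NFE2L2, GCLC, ME1, GCLM, SRXN1, PIR and HMOX1, from high to low. The first place of TXNRD1 rests on transcripts with a selenocysteine codon, whose level is uncertain. Without them it had 200.4 FPKM in the precursor library and 187.0 FPKM in its control, and 146.0 FPKM in the antimir library and 161.9 FPKM in its control, so that NQO1 came first and TXNRD1 next in every library. NQO1 was among the most abundant genes of the cells, at rank 287 in the precursor library and rank 294 in its control, and at rank 178 in the antimir library and rank 187 in its control. HMOX1 was low, at rank 12679 in the precursor library and rank 12561 in its control. With 1 library per group, it cannot be said whether neighbours in this order differ beyond a spread.

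**Figure D1:**
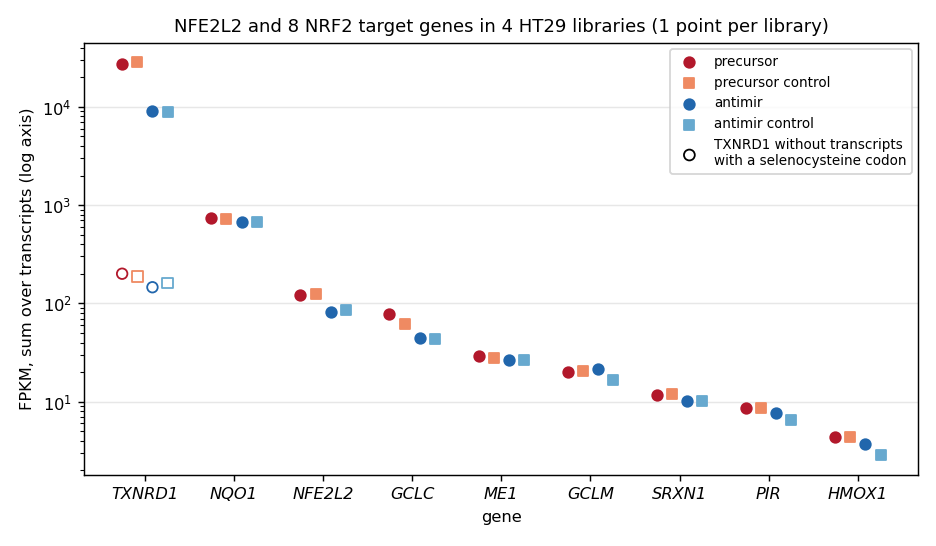
Summed FPKM of the 9 genes (log axis) in the precursor, precursor control, antimir and antimir control libraries, 1 point per library, with TXNRD1 also drawn as open symbols without its transcripts that carry a selenocysteine codon. The points of a comparison lie close together for every gene, and TXNRD1 lies between 8809 and 28354 FPKM with those transcripts and between 146 and 200.4 FPKM without them.

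None of the 9 genes passed 1.5-fold with miR-23b raised or with miR-23b blocked. Differences are given as log2(FPKM + 1) in the treated library minus its control, centred on the median of all genes with a mean of at least 1 FPKM, a scale that understates the change of low genes. In the precursor comparison 0 of 9 genes passed 1.5-fold, where 6.68% of 16982 genes did, 3.36% higher and 3.32% lower. In the antimir comparison 0 of 9 passed, where 7.97% of 14190 genes did, 5.07% higher and 2.9% lower. With 9 genes, counts of 0 lie close to these background shares and are no result about the genes as a group.

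The median difference of the 9 genes was -0.04 in the precursor comparison, with 3 above and 6 below the median of all genes. In the antimir comparison it was 0.07, with 8 above and 1 below. By construction, 50% of all genes lie on either side of 0. The count of 8 depends on the settings. Under some of the alternatives given at the end, GCLC, TXNRD1, NQO1 and ME1 fell below 0 in the antimir comparison, and NFE2L2 lay above it. The middle 50% of all genes lay between -0.12 and 0.12 in the precursor comparison and between -0.14 and 0.15 in the antimir comparison. Outside those ranges lay GCLC in the precursor comparison, and GCLM, HMOX1 and PIR in the antimir comparison.

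**Figure D2:**
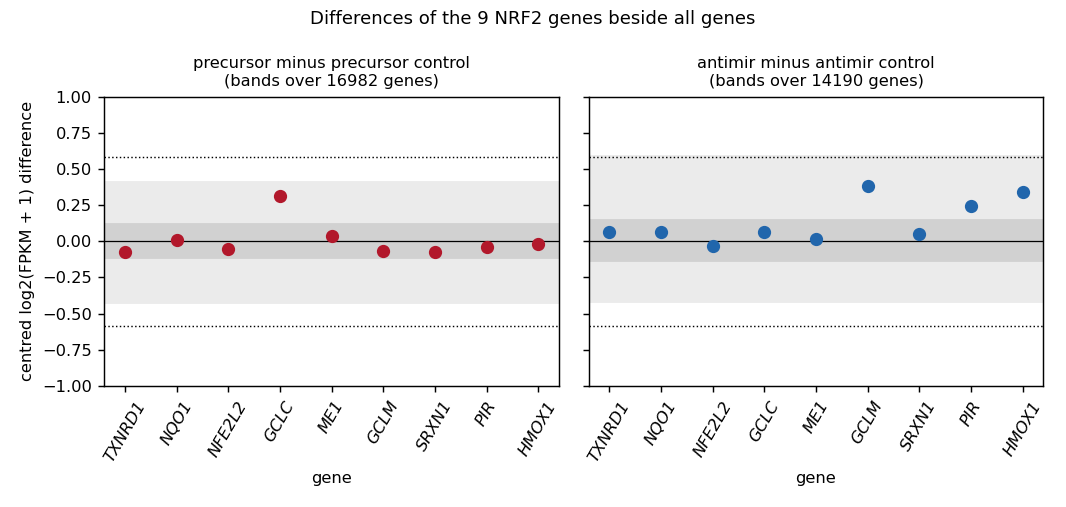
Centred log2(FPKM + 1) differences of the 9 genes in the precursor comparison (left) and the antimir comparison (right). Dark bands hold the middle 50% of all genes, light bands the range from the 5th to the 95th percentile, and dotted lines mark 1.5-fold; GCLC stands highest on the left at 0.31, GCLM and HMOX1 on the right at 0.38 and 0.34, and no gene leaves the light band.

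NFE2L2, which encodes NRF2, differed little in either comparison. It had 120.9 FPKM in the precursor library and 123.3 FPKM in its control, a difference of -0.05. It had 82.44 FPKM in the antimir library and 86.43 FPKM in its control, a difference of -0.03. On hg19 the files place NFE2L2 in a region on chromosome 2 from 178092322 to 178408564, which also covers AGPS and other genes, since the table gives 1 span for each cluster of overlapping genes.

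The NFE2L2 level came from several transcripts, of which 4 held at least 10% of it in some library. The protein-coding ENST00000446151.2 had 30.41 FPKM in the precursor library and 30.34 FPKM in its control, and 32.89 FPKM in the antimir library and 30.8 FPKM in its control. ENST00000449627.1, protein-coding, had 34.9 and 36.8 FPKM in the precursor library and its control, and 14.81 and 15.69 FPKM in the antimir library and its control. The coding ENST00000448782.1 was a little higher in the precursor library (24.17 FPKM, control 21.92) and lower in the antimir library (15.22 FPKM, control 18.75). ENST00000462023.1, a transcript with a retained intron, had 10.65 FPKM in the precursor library and 11.62 FPKM in its control, and 9.606 FPKM in the antimir library and 9.207 FPKM in its control. Of the 4, ENST00000446151.2 was the highest in both libraries of the antimir table and ENST00000449627.1 in both libraries of the precursor table. In GENCODE 29, ENST00000446151.2 has 2399 bases, ENST00000449627.1 has 909 and ENST00000448782.1 has 975.

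The split among NFE2L2 transcripts differed between the 2 deposited tables. ENST00000421929.1 had 6.577 FPKM in the precursor library and 6.626 FPKM in its control, and was listed at 0 in the antimir library and its control. ENST00000397062.3, the longest coding NFE2L2 form at 2853 bases, was listed at 0 in the precursor library and its control. It had 2.158 FPKM in the antimir library and 2.274 FPKM in its control. Each of these was alike in both libraries of a table and unlike between tables, and the sum over transcripts is used for the comparisons.

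NQO1, a cytosolic enzyme that reduces quinones without forming radicals, was nearly level in both comparisons. It had 746.4 FPKM in the precursor library and 729.0 FPKM in its control, a difference of 0.01. It had 679.5 FPKM in the antimir library and 668.4 FPKM in its control, a difference of 0.06. Its main form ENST00000564043.1, of 892 bases, had 446.5 FPKM in the precursor library and 438.9 FPKM in its control, and 359.3 FPKM in the antimir library and 373.4 FPKM in its control. ENST00000439109.2 had 173.6 and 175.6 FPKM in the precursor library and its control, and 191.6 and 166.9 FPKM in the antimir library and its control. ENST00000379046.2 stood at 70.42 and 66.21 FPKM in the precursor library and its control, and at 82.61 and 81.17 FPKM in the antimir library and its control. Among these 3 coding forms, the antimir library was higher for 2 and lower for 1, and the sum over all forms was nearly level. The longest coding form, ENST00000320623.5 of 2912 bases, had at most 0.3725 FPKM in any library. The NQO1 region in the files is on chromosome 16 from 69740898 to 69760854 (hg19).

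HMOX1, haem oxygenase 1, which opens the haem ring and is a strongly inducible NRF2 target, was the lowest of the 9 genes. It had 4.361 FPKM in the precursor library and 4.349 FPKM in its control, a difference of -0.02. It had 3.754 FPKM in the antimir library and 2.858 FPKM in its control, a difference of 0.34. The size of that second difference exceeded that of 82.4% of all genes in the same comparison. Its full-length coding transcript ENST00000216117.8 had 3.508 FPKM in the antimir library and 2.596 FPKM in its control, and 3.265 FPKM in the precursor library and 2.783 FPKM in its control. This form was thus higher in both treated libraries, by less than 1 FPKM each time. The retained-intron ENST00000481190.1 was lower in both, with 0.7651 FPKM in the precursor library and 0.9632 FPKM in its control, and 0.09012 FPKM in the antimir library and 0.1099 FPKM in its control. ENST00000494998.1, also with a retained intron, was listed at 0 in both treated libraries, with 0.3782 FPKM in the precursor control and 0.1519 FPKM in the antimir control. The HMOX1 difference in the precursor comparison was 0.16 in place of -0.02 when only coding transcripts were summed. HMOX1 is alone in its region, chromosome 22 from 35776353 to 35790207 (hg19).

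Glutathione begins with glutamate-cysteine ligase, made of a catalytic subunit (GCLC) and a modifier subunit (GCLM) that makes the enzyme work at physiological glutamate levels. GCLC had 78.39 FPKM in the precursor library and 61.86 FPKM in its control, a difference of 0.31 that exceeded in size 84.4% of all genes. GCLC had 43.99 FPKM in the antimir library and 43.15 FPKM in its control, a difference of 0.07. GCLM stood out in the other comparison. GCLM had 19.97 FPKM in the precursor library and 20.6 FPKM in its control, a difference of -0.07. GCLM had 21.26 FPKM in the antimir library and 16.51 FPKM in its control, a difference of 0.38 that exceeded in size 85.3% of all genes. Each subunit therefore stood out in 1 comparison only, and whether the subunits differ from each other could not be tested. The regions in the files are chromosome 6 from 53362138 to 53481969 for GCLC, shared with non-coding genes, and chromosome 1 from 94350760 to 94374966 for GCLM, which is alone there (hg19).

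In the deposited split of reads among transcripts, the higher GCLC value in the precursor library did not come from its full-length message. ENST00000229416.6, a coding transcript of 3813 bases, had 7.262 FPKM in the precursor library and 7.409 FPKM in its control, and 11.86 FPKM in the antimir library and 12.31 FPKM in its control. ENST00000513939.1, a coding transcript of 1800 bases, had 12.28 FPKM in the precursor library and 7.025 FPKM in its control, but 0.5632 FPKM in the antimir library and 2.795 FPKM in its control. The retained-intron transcript ENST00000510837.1 had 14.02 FPKM in the precursor library and 10.16 FPKM in its control, and 7.314 FPKM in the antimir library and 6.48 FPKM in its control. In the authors' deposited table both of these were called higher in the precursor library, at q = 0.0114 for ENST00000513939.1 and q = 0.0437 for ENST00000510837.1. ENST00000504353.1 had 14.32 FPKM in the precursor library and 10.26 FPKM in its control, and 7.005 FPKM in the antimir library and 6.641 FPKM in its control. ENST00000514933.1 had 18.05 and 15.61 FPKM in the precursor library and its control, and 12.89 and 11.13 FPKM in the antimir library and its control. Forms not classed as protein-coding held 70.7% of GCLC FPKM with the precursor and 70.5% in its control. The difference was of like size in the coding forms (0.29) and in the others (0.32). In the coding forms it rested on ENST00000513939.1.

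The higher GCLM value in the antimir library came almost wholly from 1 short form. The processed transcript ENST00000467772.1, of 625 bases and with no AATGTGA in its sequence, had 14.9 FPKM in the antimir library and 10.39 FPKM in its control, and 14.34 FPKM in the precursor library and 15.05 FPKM in its control. The coding transcript ENST00000370238.3, of 4857 bases, carries the seed match shown above. It had 6.314 FPKM in the antimir library and 6.121 FPKM in its control, and 5.631 FPKM in the precursor library and 5.55 FPKM in its control. This coding message with the miR-23b seed match thus differed by less than 0.2 FPKM in each comparison. Whether the site has a part in any of these values was not tested. With coding transcripts alone, the GCLM difference in the antimir comparison was 0.08 in place of 0.38.

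**Figure D3:**
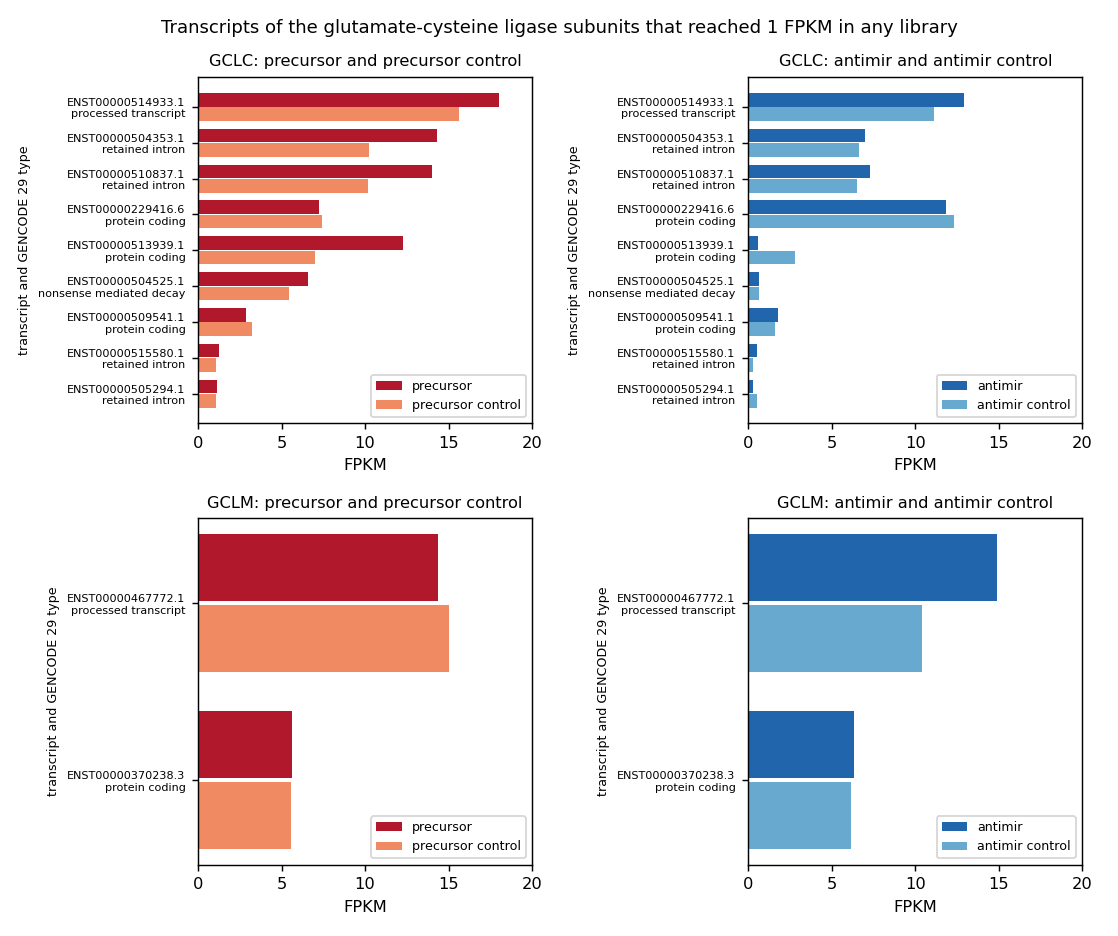
FPKM of the GCLC (top) and GCLM (bottom) transcripts that reached 1 FPKM in any library, with the treated library drawn above its control for each transcript. In GCLC the full-length ENST00000229416.6 is level between the precursor library and its control while ENST00000513939.1, ENST00000510837.1, ENST00000504353.1 and ENST00000514933.1 are higher in the precursor library; in GCLM the short ENST00000467772.1 is higher in the antimir library and the coding ENST00000370238.3 is level.

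TXNRD1, thioredoxin reductase 1, passes electrons from NADPH to thioredoxin and is a selenoprotein, in which a UGA codon near the end of the coding sequence is read as selenocysteine. It had 27318 FPKM in the precursor library and 28354 FPKM in its control, a difference of -0.08. It had 8986 FPKM in the antimir library and 8809 FPKM in its control, a difference of 0.07. These levels put it at rank 17 in the precursor library and rank 18 in its control, and at rank 12 in both libraries of the antimir table.

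That level rested on 7 transcripts with an annotated selenocysteine codon. They held 99.3% of TXNRD1 FPKM in both libraries of the precursor table, and 98.4% with the antimir and 98.2% in its control. The largest in both libraries of the precursor table was ENST00000526390.1, with 12993 FPKM in the precursor library and 13092 FPKM in its control, and 3510 FPKM in the antimir library and 2969 FPKM in its control. ENST00000525566.1, the largest in both libraries of the antimir table, had 6909 FPKM in the precursor library and 8773 FPKM in its control, and 3609 FPKM in the antimir library and 3694 FPKM in its control. Each of these 2 holds AATGTGA once. The first was nearly level between the precursor library and its control and higher in the antimir library than in its control. The other was lower in the precursor library than in its control. It was nearly level in the antimir table, where the authors did not test it. Both carry a selenocysteine codon, so no direction is read from them. ENST00000526950.1 had 3888 FPKM in the precursor library and 3253 FPKM in its control, and 1433 FPKM in the antimir library and 1506 FPKM in its control.

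Selenocysteine transcripts had higher medians than other coding transcripts in the tables as a whole, though most lay far below the TXNRD1 level. The 63 such transcripts of 24 genes had a median of 68.7 FPKM in the precursor library and 69.6 FPKM in its control, where the other 65571 protein-coding transcripts had medians of 0.268 and 0.255 FPKM. In the antimir library their median was 19.7 FPKM and in its control 24.2 FPKM, where the other coding transcripts had medians of 0.0323 and 0.0287 FPKM. Of the 63 selenocysteine transcripts, 17 lay above 1000 FPKM in the precursor control and 7 in the antimir control. So did 138 and 78 transcripts without the codon. Why selenocysteine transcripts are high was not tested, so the TXNRD1 level is read as uncertain.

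Without those 7 transcripts TXNRD1 had 200.4 FPKM in the precursor library and 187.0 FPKM in its control, a difference of 0.08. On the same basis it had 146.0 FPKM in the antimir library and 161.9 FPKM in its control, a difference of -0.11. The sign of the difference thus turned in both comparisons, and no direction is given for TXNRD1. The TXNRD1 region in the files is chromosome 12 from 104609556 to 104744061 (hg19), which also covers EID3 and RPL18AP3.

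SRXN1, sulfiredoxin, which repairs over-oxidised peroxiredoxins, had 11.56 FPKM in the precursor library and 12.03 FPKM in its control, a difference of -0.08. It had 10.17 FPKM in the antimir library and 10.07 FPKM in its control, a difference of 0.05. Nearly all of it was ENST00000381962.3, with 11.43 FPKM in the precursor library and 11.78 FPKM in its control. SRXN1 was thus nearly level in both comparisons. Its region on chromosome 20, from 627258 to 656825 (hg19), is shared with SCRT2.

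ME1, cytosolic malic enzyme, makes NADPH from malate. It had 28.92 FPKM in the precursor library and 27.79 FPKM in its control, a difference of 0.03. It had 26.27 FPKM in the antimir library and 26.64 FPKM in its control, a difference of 0.02. Its level was shared by 3 forms. Its coding transcript ENST00000369705.3 had 9.095 FPKM in the precursor library and 8.625 FPKM in its control, and 9.268 FPKM in the antimir library and 9.547 FPKM in its control. ENST00000543031.1, which has no match in GENCODE 29, had 13.4 FPKM in the precursor library and 12.25 FPKM in its control, and 7.43 FPKM in the antimir library and 9.458 FPKM in its control. ENST00000541327.1, also unmatched, had 6.426 FPKM in the precursor library and 6.921 FPKM in its control, and 9.572 FPKM in the antimir library and 7.63 FPKM in its control. In the antimir table the last pair differed in opposite directions and the sum stayed level. The ME1 region is chromosome 6 from 83920107 to 84140797 (hg19).

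PIR, pirin, an iron-binding nuclear protein, had 8.577 FPKM in the precursor library and 8.688 FPKM in its control, a difference of -0.04. It had 7.594 FPKM in the antimir library and 6.454 FPKM in its control, a difference of 0.24, larger in size than that of 71.6% of all genes. Its coding ENST00000380420.5 had 6.42 FPKM in the precursor library and 7.052 FPKM in its control, and 6.37 FPKM in the antimir library and 5.748 FPKM in its control. ENST00000492432.1, a processed transcript, had 1.646 FPKM in the precursor library and 0.9181 FPKM in its control, and 0.7196 FPKM in the antimir library and 0.4593 FPKM in its control. The coding form of PIR was therefore lower with the precursor and higher with the antimir, by less than 1 FPKM each time. PIR shares its region on the X chromosome, from 15402920 to 15574652 (hg19), with BMX.

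The authors' deposited table for the precursor called 6 of the 62 member transcripts it tested, 5 higher and 1 lower, at a q threshold of 0.05. Over all transcripts it called 13.6% of those tested, 6.91% higher and 6.66% lower. The authors' deposited table for the antimir called 0 of 50, where the share over all transcripts was 0.414%, 0.243% higher and 0.171% lower. These q-values compare 2 libraries, not 2 conditions. Beside the GCLC forms, the authors' deposited table called ENST00000503506.2 of TXNRD1 higher in the precursor library, with 47.5 FPKM and 0.254 FPKM in its control, at q = 1.48e-08. In the antimir table that transcript had 6.681 FPKM in the antimir library and 42.18 FPKM in its control, and the authors did not test it there. It carries a selenocysteine codon, so its level is uncertain. The authors' deposited table called ENST00000397736.2 of TXNRD1 lower in the precursor library, with 2.6 FPKM and 6.61 FPKM in its control, at a q listed as 0. Both remaining calls in the authors' deposited table were transcripts listed at 0 in the control, ENST00000320623.5 of NQO1 at 0.325 FPKM and ENST00000429002.2 of TXNRD1 at 0.269 FPKM in the precursor library. None of these called forms of NQO1 and TXNRD1 held as much as 1% of the summed FPKM of its gene.

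Each gene also had a whole-locus entry under its gene identifier, which no source explains and which is not part of the sums. All 9 were lower in the precursor library than in its control, as were 75.3% of the 27630 such entries above 0. With the antimir, 7 of the 9 were higher and 2 lower, where 43.3% of all such entries above 0 were lower. The authors' deposited table called 1 of them, the NQO1 entry, lower in the precursor library at 0.498 FPKM against 0.664 FPKM in its control (q = 0.0196), where 30.2% of all tested entries of this kind were called lower and 0.6% higher. Of the 9, the antimir table tested 1 and called 0, where it called 0.127% of all tested entries higher and 0.0212% lower. The count of 9 is thus read beside a table in which most such entries were lower.

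Genes that control NRF2 also lay within 1.5-fold, with 1 exception that rests on a single transcript. This holds for sums over transcripts. Over all genes, 6.68% passed 1.5-fold in the precursor comparison and 7.97% in the antimir comparison. Counts of 0 or 1 in this list lie close to those shares and are no result about the list. The same goes for the targets, enzymes, partners and paralogs below. Of 16 such genes, all of which reached a mean of 1 FPKM, 14 lay above and 2 below 0 in the precursor comparison, with a median of 0.08. In the antimir comparison 7 lay above and 9 below, with a median of -0.05. KEAP1, which holds NRF2 in the cytoplasm, had 16.36 FPKM in the precursor library and 14.13 FPKM in its control, a difference of 0.18. KEAP1 had 13.69 FPKM in the antimir library and 15.07 FPKM in its control, a difference of -0.09. With its most abundant transcript alone, KEAP1 lay at -0.36 in the precursor comparison, where the sign turned, and at -0.71 in the antimir comparison, past 1.5-fold, so no direction is given for it. CUL3, the ligase scaffold, had 132.3 FPKM in the precursor library and 123 FPKM in its control (difference 0.08), and 41.16 FPKM in the antimir library and 43.48 FPKM in its control (difference -0.04). CUL3 lay at -0.04 in the precursor comparison when only coding transcripts were summed. BACH1, the repressor that competes with NRF2, had 42.43 FPKM in the precursor library and 43.02 FPKM in its control (difference -0.04), and 20.3 FPKM in the antimir library and 19.44 FPKM in its control (difference 0.10). With its most abundant transcript alone, BACH1 lay at -0.32 in the precursor comparison.

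BTRC, which encodes a substrate adaptor that can also send NRF2 for destruction, was the 1 control gene past 1.5-fold. It had 12.14 FPKM in the precursor library and 38.53 FPKM in its control, a difference of -1.61. Of that, ENST00000539411.1, which has no match in GENCODE 29, held 4.303 FPKM in the precursor library and 32.29 FPKM in its control, and it was listed at 0 in the antimir library and its control. With coding transcripts alone the BTRC difference was 0.02. BTRC had 6.08 FPKM in the antimir library and 5.722 FPKM in its control, a difference of 0.11 that was 0.52 with coding transcripts alone. GSK3B, a kinase that marks NRF2 for BTRC, had 29.41 FPKM in the precursor library and 24.94 FPKM in its control (difference 0.21), and 20.25 FPKM in the antimir library and 21.98 FPKM in its control (difference -0.08). CREBBP, a coactivator of NRF2, had 5.807 FPKM in the precursor library and 5.272 FPKM in its control (difference 0.10), and 4.594 FPKM in the antimir library and 6.432 FPKM in its control (difference -0.37). With its most abundant transcript alone, CREBBP lay at -0.095 in the precursor comparison.

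Other known NRF2 targets gave a similar picture. In the precursor comparison 29 of 30 had a value, since TRIM16L had only failed entries. Of these, 27 passed the 1 FPKM minimum, with 19 above and 8 below 0, 0 past 1.5-fold and a median of 0.07. In the antimir comparison 28 passed it, with 18 above and 10 below, 1 past 1.5-fold and a median of 0.04. The 1 gene was SLC7A11, the cystine importer that feeds glutathione synthesis, with 12.2 FPKM in the antimir library and 19.82 FPKM in its control, a difference of -0.62. In the precursor library SLC7A11 had 18.27 FPKM and in its control 17.94 FPKM, a difference of 0.00. With coding transcripts alone its difference in the antimir comparison was -0.36, short of 1.5-fold. AKR1C2, an aldo-keto reductase, had 3.546 FPKM in the antimir library and 2.196 FPKM in its control (difference 0.55), and 7.18 FPKM in the precursor library and 6.615 FPKM in its control (difference 0.08). With coding transcripts alone the AKR1C2 difference in the antimir comparison was 0.09, and with its most abundant transcript alone it was 0.77, past 1.5-fold. EPHX1, microsomal epoxide hydrolase, had 56.7 FPKM in the precursor library and 41.97 FPKM in its control (difference 0.40), and 34.37 FPKM in the antimir library and 45.51 FPKM in its control (difference -0.36). EPHX1 was thus higher with the precursor and lower with the antimir.

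Antioxidant enzymes not classed here as NRF2 targets did not pass 1.5-fold either as sums over transcripts, where 6.68% (precursor comparison) and 7.97% (antimir comparison) of all genes did. Of 17, 16 passed the minimum, with 9 above and 7 below 0 in the precursor comparison (median 0.04) and 7 above and 9 below in the antimir comparison (median -0.02). SOD2, the mitochondrial superoxide dismutase, had 28.45 FPKM in the antimir library and 38.83 FPKM in its control (difference -0.40), and 51.98 FPKM in the precursor library and 45.85 FPKM in its control (difference 0.16). MSRA, which repairs oxidised methionine, had 2.046 FPKM in the antimir library and 2.79 FPKM in its control (difference -0.28), and 3.452 FPKM in the precursor library and 2.984 FPKM in its control (difference 0.14). With its most abundant transcript alone, MSRA lay at -0.20 in the precursor comparison. TXNRD2, the mitochondrial thioredoxin reductase and also a selenoprotein, had 15132 FPKM in the precursor library and 11347 FPKM in its control (difference 0.39), and 479.2 FPKM in the antimir library and 381.8 FPKM in its control (difference 0.37). Without selenocysteine transcripts its differences were 0.59, just past 1.5-fold, in the precursor comparison and -0.08 in the antimir comparison. The level of TXNRD2 is thus as uncertain as that of TXNRD1. The single transcript of GPX4, another selenoprotein, was listed at 0 in every library while its whole-locus entry had 38.36 FPKM in the precursor library and 34.15 FPKM in its control. GPX4 was named after its values were seen.

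Partners of HMOX1 in haem breakdown and iron release all lay above 0 in the precursor comparison, 7 of 7, with a median of 0.19. So did all 10 colon epithelial markers that passed the minimum in that comparison, with a median of 0.105. Of the partners, BLVRB, FTH1 and FTL are also counted among the other NRF2 targets. In the antimir comparison 3 of the partners lay above and 4 below, with a median of -0.04. In either comparison 0 of the 7 passed 1.5-fold, close to the shares over all genes (6.68% and 7.97%). BLVRA, which reduces biliverdin made by haem oxygenase, had 9.028 FPKM in the precursor library and 6.426 FPKM in its control (difference 0.41), and 2.547 FPKM in the antimir library and 4.207 FPKM in its control (difference -0.52). SLC40A1, the iron exporter ferroportin, had 275.6 FPKM in the precursor library and 228.1 FPKM in its control (difference 0.25), and 126.6 FPKM in the antimir library and 134.1 FPKM in its control (difference -0.05). FTL, ferritin light chain, had 2295 FPKM in the precursor library and 1976 FPKM in its control (difference 0.19), and 1532 FPKM in the antimir library and 1528 FPKM in its control (difference 0.04). With coding transcripts alone the median of the list in the precursor comparison was 0.07, and BLVRA lay at -0.17 in the precursor comparison and at 0.03 in the antimir comparison. With its most abundant transcript alone, BLVRA lay at 0.84 in the precursor comparison, past 1.5-fold, and at 0.02 in the antimir comparison. No direction is given for BLVRA.

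**Figure D4:**
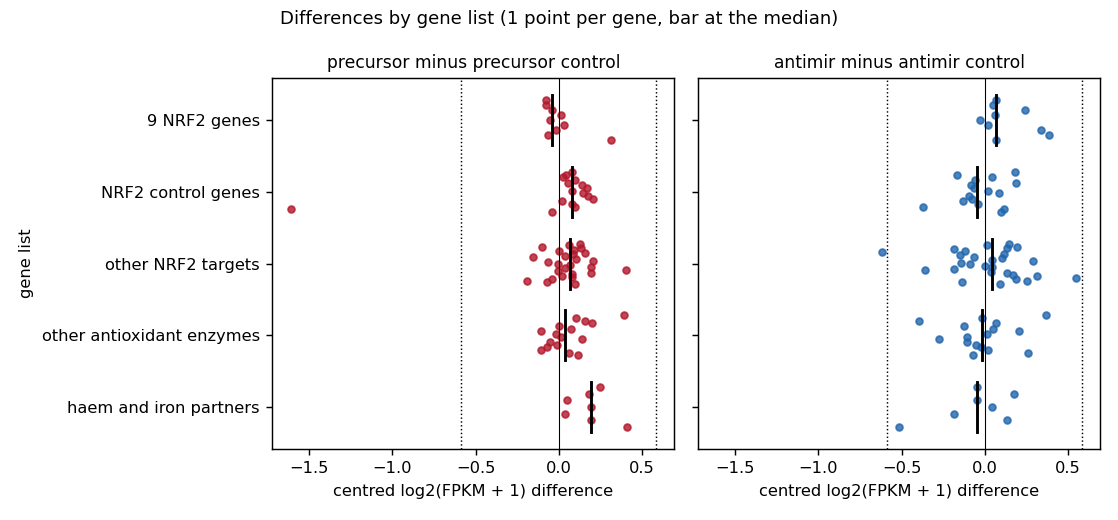
Centred log2(FPKM + 1) differences of every gene with a mean of at least 1 FPKM in 5 gene lists, for the precursor comparison (left) and the antimir comparison (right), with a bar at each median and dotted lines at 1.5-fold. Every point of the haem and iron partners lies above 0 on the left, where BTRC lies alone at -1.61, and the 5 medians lie between -0.05 and 0.07 on the right. BLVRB, FTH1 and FTL are drawn both among the other NRF2 targets and among the haem and iron partners.

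Among 15 subunits and paralogs, a list that includes 7 of the 9 genes themselves, 0 of 15 passed 1.5-fold in either comparison, with medians of 0.03 for the precursor and 0.07 for the antimir. These counts lie close to the shares over all genes (6.68% and 7.97%). The list also shares NFE2L1, NFE2L3, TXNRD2 and HMOX2 with the lists above. In the precursor comparison 9 lay above and 6 below 0, and in the antimir comparison 11 lay above and 4 below. ME3, a mitochondrial malic enzyme, had 9.471 FPKM in the precursor library and 6.456 FPKM in its control (difference 0.47), and 7.328 FPKM in the antimir library and 7.06 FPKM in its control (difference 0.09). With the transcripts that the authors tested alone, ME3 lay at -0.12 in the precursor comparison. With coding transcripts alone it lay at 0.88 there, past 1.5-fold, so no direction is given for it. TXNRD3, the remaining thioredoxin reductase, had 2028 FPKM in the precursor library and 2339 FPKM in its control (difference -0.23), and 999.9 FPKM in the antimir library and 744.1 FPKM in its control (difference 0.46). Without selenocysteine transcripts TXNRD3 lay at 0.01 in the precursor comparison and at 1.84 in the antimir comparison, so no direction is given for it.

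Interferon-induced genes were higher in the antimir library by more than any of the 9 genes. All 16 of a list that was already known to be high there passed 1.5-fold upward, with a median difference of 1.81, and the list gives no independent support for that direction. IFI44L, one of them, had 81.06 FPKM in the antimir library and 9.637 FPKM in its control, a difference of 2.99. IFITM1 had 119 FPKM in the antimir library and 14.9 FPKM in its control, and IFI6 had 814 FPKM in the antimir library and 163.1 FPKM in its control. In the precursor comparison 12 of the 13 measured genes of the list lay below 0, with a median of -0.29. These values stand beside the higher GCLM, HMOX1 and PIR of the antimir library, and their part in those differences was not tested.

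For NFE2L2 and GCLM, the genes with the most similar pattern over the 4 libraries were sought among 10825 genes with transcripts, by the distance between log2(FPKM + 1) values after each gene's own mean was taken out. Nearest to NFE2L2 was MTMR2, with 47.1 FPKM in the precursor library and 48.5 FPKM in its control, and 32.0 FPKM in the antimir library and 33.5 FPKM in its control. BZW1 and NOLC1 came next, at distances of 0.0171 and 0.0186 on the log2 scale, against 0.00995 for MTMR2. Nearest to GCLM were RANBP6, ZNF83 and TIFA, at distances of 0.00401, 0.018 and 0.0186. RANBP6 had 12.5 FPKM in the precursor library and 12.9 FPKM in its control, and 13.3 FPKM in the antimir library and 10.3 FPKM in its control. These are likenesses over 4 points that share libraries and table. Each gene's mean was taken over both tables, so the distance includes the offset between tables that were treated as normalised separately. NFE2L2 had 120.9 and 123.3 FPKM in the precursor table and 82.44 and 86.43 FPKM in the antimir table. A small distance is therefore not a likeness in the differences with miR-23b alone.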

How the data were processed

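The labels name total RNA and standard Illumina libraries from HT29 cells, 1 library in each of 4 groups. Per the submitters' processing notes, bcl2fastq 1.8.3, TopHat2 2.0.11, Cufflinks 2.2.0 and Cuffdiff were used with hg19; for settings and annotation, nothing is given in the sources used here. Isoform tables, 2 in number, were deposited by the authors in FPKM, each with a treated library and its control. No source gives a scaling shared by both tables, so they were treated as normalised separately. Per the file headers, the tables also hold the authors' p-value and q-value for each isoform, which compare 2 libraries. Depth is unknown, since FPKM keep no counts. In either table, the column name ending in N was read as the control.

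Transcripts without a failed status were summed per gene identifier, and whole-locus entries stood in only for genes with no transcript. Differences were log2(FPKM + 1), treated minus control, less the median (0.022 for the precursor, -0.038 for the antimir) of genes with a mean of at least 1 FPKM. Counts past 1.5-fold carry no test. Calculations used Python 3.11.15 with pandas 2.3.3 and numpy 2.4.6, and were tested on simulated data. GENCODE 29, on another assembly, was matched by identifier only (70 of 77 member transcripts, 90.9%) and gave types, lengths and 3′ UTRs. Named genes were the 9 genes, the 3 of each list with the largest differences, KEAP1, CUL3 and BACH1, the 3 genes most like NFE2L2 and GCLM, and transcripts with at least 10% of a gene's FPKM or a call by the authors. ENST00000421929.1 and ENST00000397062.3 of NFE2L2 and ENST00000494998.1 of HMOX1 fall outside this rule and were named with their values known. The 9 genes and all lists were chosen with earlier results of these data known. Alternatives covered filters, pseudocounts, failed and untested entries, the choice of transcripts and the centring.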

Additional observations from a re-analysis of the deposited data

How the results depend on the processing

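The count of the 9 genes past 1.5-fold was 0 under all 13 alternatives in both comparisons, and their median stayed between -0.05 and -0.02 for the precursor and between 0.03 and 0.07 for the antimir. Over the alternatives, GCLC in the precursor comparison lay between 0.17 and 0.34, and in the antimir comparison GCLM lay between 0.08 and 0.51, HMOX1 between 0.30 and 0.43 and PIR between 0.13 and 0.28. TXNRD1 changed sign in both comparisons, as described, and the differences of GCLC and NFE2L2 in the antimir comparison reached -0.14 and 0.12. NQO1 and ME1 also changed sign in the antimir comparison, reaching -0.026 and -0.019. In the precursor comparison HMOX1 and NQO1 changed sign, reaching 0.162 and -0.009. Restricting the sums to coding transcripts, and leaving out selenocysteine transcripts, were chosen after seeing the data.

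Counts of list genes past 1.5-fold moved as follows. With the most abundant transcript alone, they were 1 in place of 0 for the other antioxidant enzymes, the HMOX1 partners and the paralogs in the precursor comparison, and 1 in place of 0 for the control genes and the paralogs and 3 in place of 1 for the other NRF2 targets in the antimir comparison. With coding transcripts alone, they were 0 in place of 1 for the control genes, 1 in place of 0 for the other NRF2 targets and 2 in place of 0 for the paralogs in the precursor comparison, and 0 in place of 1 for the other NRF2 targets in the antimir comparison. There the median of the HMOX1 partners in the precursor comparison was 0.068 in place of 0.192, and BTRC lay at 0.023 in place of -1.61, since the transcript behind its value is not among those kept. Without selenocysteine transcripts, the counts were 1 in place of 0 for the other antioxidant enzymes and the paralogs in the precursor comparison and for the paralogs in the antimir comparison. With a pseudocount of 0.1 or 0.01, the antimir comparison had 2 in place of 1 for the other NRF2 targets and 1 in place of 0 for the HMOX1 partners. With tested transcripts alone it had 1 in place of 0 for the paralogs. Except where the transcripts kept show it, the cause was not tested.

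With no filter on low values, 2.79% of all genes passed 1.5-fold in the precursor comparison and 3.10% in the antimir comparison. No paired analysis was possible because each group held 1 library, and for the same reason no replicate could be left out. No library has a replicate, the depth behind an FPKM is unknown, and the split of reads among overlapping transcripts was made by the authors' software, so values of single transcripts are less certain than sums.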
